A study of Oncorhynchus mykiss with 12 samples.

Results

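Complement components and C1q-like proteins were followed in liver RNA of wild-type rainbow trout (Oncorhynchus mykiss). The members were 85 of the 42128 rows of the deposited RNA-seq table, found by descriptions that start with the name of a complement component, a complement factor, C4b-binding protein or a C1q-related protein. They comprised 3 C1q subunits, 36 C1q-like proteins, 7 loci of the starter proteases C1r and C1s and of C4, 9 C3 loci, 16 loci of complement factors and C4b-binding protein, 8 terminal components (C5 to C9), 2 C1q-binding proteins and 4 other loci. The control group had 3 libraries of whole liver from untreated fish, and the hypoxia group 3 libraries from fish held for 1 month at 4.5 ± 0.1 mg/L dissolved oxygen. Nothing in the labels ties a replicate to a fish of its own, so the p-values below describe library-to-library spread, which may be technical. The small RNA libraries of the same groups were not used here.

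Complement is a chain of plasma proteins, most of them made by hepatocytes, that tags microbes and damaged cells and can pierce membranes. The classical pathway starts with C1q and its proteases C1r and C1s, the lectin pathway with mannan-binding lectin and its proteases, and the alternative pathway with factors B and D. All of them meet at C3, whose cleavage tags surfaces, and end with C5 to C9, which assemble the membrane attack complex. Factor I and C4b-binding protein are among the regulators that hold the chain in check. Salmonid fish are known to carry several C3 genes. C1q-like proteins share the C1q domain with C1q but need not take part in complement. In mammals the C1ql proteins are known as secreted ligands at synapses.

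Total counts were 19060468 to 23152833 per library. Control replicate 1 stood apart from the other controls: on the first principal component of all genes tested, with 44.1% of the variance, it lay at -9.57, against -41.8 and -38.6 for the other controls and 24.9 to 33.2 for hypoxia. FPKM, the deposited level, is a fragment count scaled to transcript length and library size, so levels can be compared between genes. Hepatocyte markers, found by the start of their description (fibrinogen, apolipoprotein, prothrombin, antithrombin, plasminogen and antiplasmin loci), were abundant. Their 37 loci summed to 89878 to 105643 FPKM in control and 97775 to 99207 FPKM in hypoxia. The 10 loci whose description starts with apolipoprotein A-I, a start that A-II and A-IV share, gave 69028 to 82311 FPKM of the control sums. Of the 33 tested 2 rose and 7 fell, or 27.3%, against 7.22% of all genes tested. Without overlap, hypoxia was below at 13 of the 33, against 13.1% of all genes, and above at 5, against 13.9%. The 46 hemoglobin loci, markers of red cells, summed to 1227 to 1707 FPKM in control and to 628 to 873 FPKM in hypoxia. Of these loci 16 of the 20 tested fell, against 3.39% of all genes tested, and 21 had no read. The part of this shift in the results below was not tested. In whole tissue, fewer cells of a type and less RNA per cell cannot be told apart.

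Transcripts of the 85 loci, C1q-like loci included, made up 4.93% ± 0.41 (SD, n = 3) of all FPKM in control livers and 5.93% ± 0.46 (SD, n = 3) after hypoxia. The summed level was 27307, 23693 and 25417 FPKM in control replicates 1 to 3 and 31110, 33750 and 29382 FPKM in hypoxia replicates 1 to 3. Every hypoxia library lay above every control library. Of the difference of 5942 FPKM between the group means, the C1q-like locus LOC100136613 supplied 42.2% and the C3 locus LOC110489027 21.1%. All C1q-like loci together, which need not take part in complement, supplied 46.0%. Without the C1q-like and C1q-binding loci the sum was 20402 to 23363 FPKM in control and 24122 to 27157 FPKM in hypoxia. Terminal components went the other way, with a difference of -770.4 FPKM. Most of it lay at c9, with group means of 2438 FPKM in control and 1737 FPKM in hypoxia (edgeR adjusted p = 0.0573). The levels were high: 31 members had a mean over 100 FPKM, and 6 of them over 1000 FPKM. By mean control level LOC110489027 ranked 10th of all rows, c9 33rd and LOC100136613 47th. After hypoxia LOC100136613 ranked 14th and c9 42nd.

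**Figure D1:**
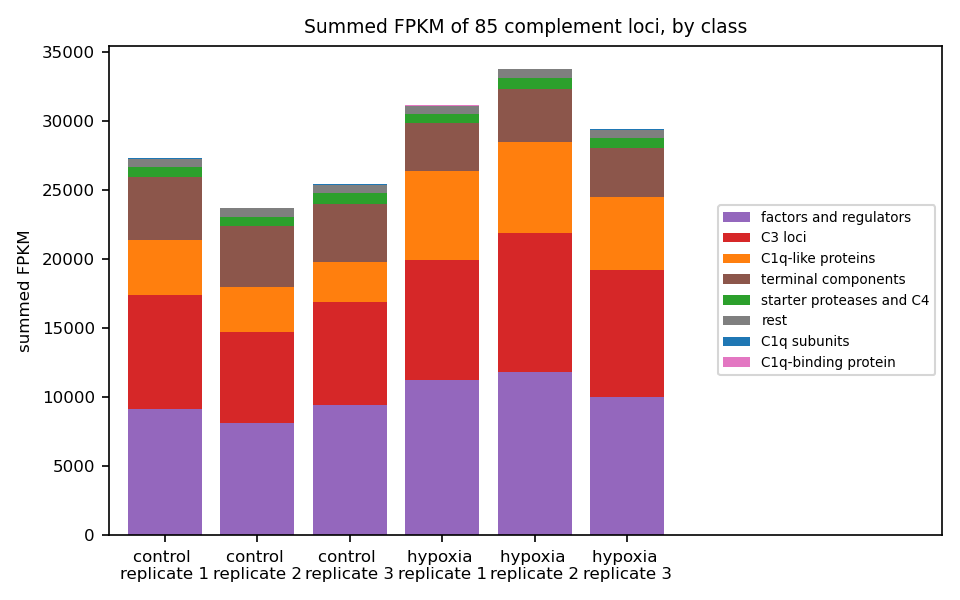
Summed FPKM of the 85 complement loci in each library, stacked by class, with the axis from 0 ("rest" stands for the C1 inhibitor and C1q receptor loci). The 3 hypoxia bars reach 29382 to 33750 FPKM against 23693 to 27307 FPKM in control, and the C1q-like, C3 and factor segments are the ones that grow.

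The comparison asked which of these loci differ after 1 month of low oxygen. Of the 59 loci with a mean of at least 0.5 FPKM, which were tested, 3 rose and 1 fell in edgeR at an adjusted p (Benjamini-Hochberg, over all genes tested) under 0.05, or 6.78%, against 7.22% of all 19365 genes tested (3.83% higher, 3.39% lower). That share lies near the background and is no result about complement as a whole. The loci that rose were LOC100136613 (C1q-like protein 3), LOC110517348 (C3-like) and LOC110537832 (C1q-binding protein), and the locus that fell was c7b. At an unadjusted p under 0.05 the count was 21 (35.6%), against 23.7% of all genes. The 3 hypoxia libraries did not overlap with the 3 controls in FPKM at 23 of the 59 loci (39.0%), against 27.0% of all genes. Hypoxia was above at 14 loci (23.7%, against 13.9%) and below at 9 (15.3%, against 13.1%). The median log2 fold change of the tested loci was 0.05, beside -0.00449 over all genes. Class medians were 0.29 for C3 loci, 0.29 for factors and regulators, -0.14 for terminal components, -0.07 for C1q-like proteins, -0.01 for starter proteases with C4 and 0.01 for C1q subunits. DESeq2 called 6 of the 59 loci higher and 4 lower, against 950 higher and 841 lower of all 19365 genes. Among those DESeq2 added were c9, cfd and LOC110538201, all lower, and cfb, higher. Without control replicate 1, edgeR called 4 higher and 3 lower of the 59, against 11.3% of all genes. Without control replicate 2 it called 2 higher and 0 lower (2.44% of all genes), and without control replicate 3 it called 1 and 0 (2.57%). Without hypoxia replicates 1, 2 and 3 the counts were 1 and 0 (1.86%), 2 and 1 (2.44%) and 1 and 1 (2.23%). The authors' deposited table has 8 of the 85 past its adjusted p of 0.05, against 3.32% of all its rows. These were the 4 above and LOC110538201, cfb, cfd and c9. Below a mean of 0.5 FPKM lay 22763 of all 42128 rows and 26 of the 85. A mean of at least 100 FPKM was reached by 528 of all rows and 31 of the 85. None of the background shares in this paragraph is thus matched for level, those for overlap and unadjusted p included.

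**Figure D2:**
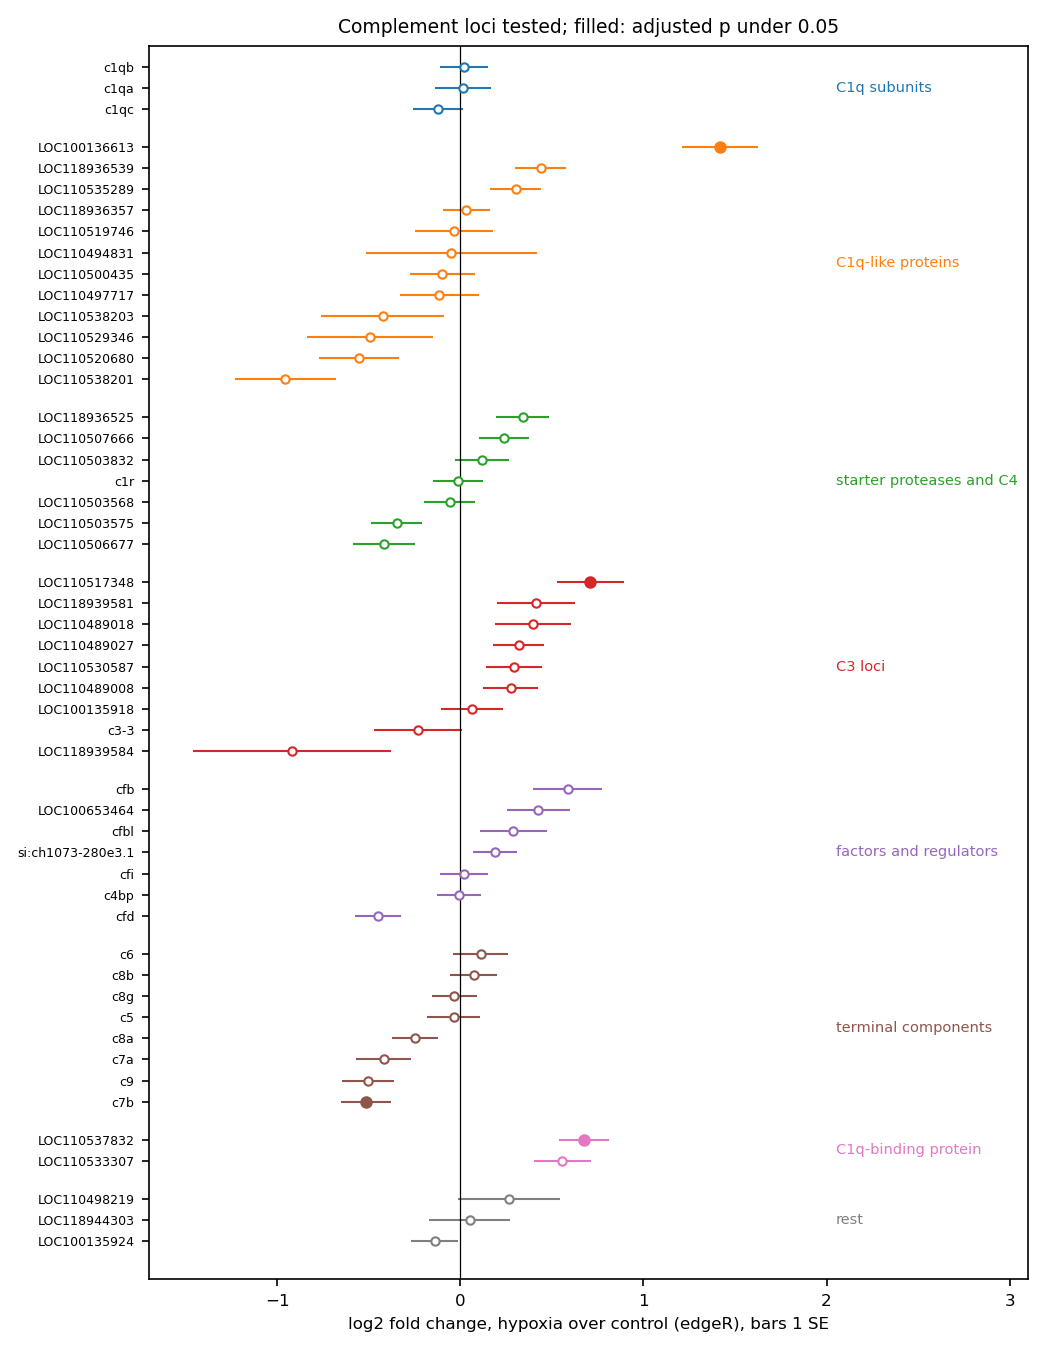
Log2 fold change of hypoxia over control for 51 of the 59 tested loci, with bars of 1 SE, grouped by class ("rest" as C1 inhibitor and C1q receptor loci). Filled points mark an edgeR adjusted p under 0.05, which LOC100136613 at 1.42, LOC110517348 at 0.71, LOC110537832 at 0.68 and c7b at -0.52 reached, and C3 loci and factors lie mostly right of 0.

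The subunits of C1q itself, the recognition molecule of the classical pathway, were low, and the groups overlapped. The A chain c1qa had 6.26, 5.45 and 4.69 FPKM in control and 6.401, 4.53 and 5.77 FPKM in hypoxia. The B chain c1qb had 12.3, 11.8 and 12.1 FPKM in control and 12.1, 11.2 and 14.2 FPKM in hypoxia. The C chain c1qc had 18.03, 12.8 and 15.2 FPKM in control and 14.5, 13.4 and 14.5 FPKM in hypoxia. The log2 fold changes were 0.01 (SE 0.15), 0.02 (SE 0.13) and -0.12 (SE 0.13), with edgeR adjusted p of 0.973, 0.948 and 0.632. In mammals these chains are made by macrophages rather than hepatocytes. The 3 chains are neighbours in the gene order of the reference assembly, and control replicate 1 was the highest control library at each. Macrophage markers were low throughout, with sums of 8.44 to 11.2 FPKM in control and 7.74 to 8.90 FPKM in hypoxia over 24 loci, of which 3 were tested and 5 had no read; no row began with the names of macrophage-expressed gene 1 or VSIG4. Of the 3, the scavenger receptor MARCO fell, from 2.92 to 3.85 FPKM in control to 1.17 to 1.62 FPKM in hypoxia. The 2 loci of the macrophage colony-stimulating factor 1 receptor, 1 of them tested and not called, went the other way. They summed to 3.59 to 4.15 FPKM in control and to 4.39 to 4.59 FPKM in hypoxia. Of the 74 leukocyte markers, 68 were found by a description that starts with immunoglobulin, which can take in loci that do not mark leukocytes. The 74 summed to 111.7 to 138 FPKM in control and to 113 to 133 FPKM in hypoxia. Of the 29 tested 0 were higher and 1 lower, or 3.45%, against 7.22% of all genes tested. Receptor-type phosphatase C, which marks all leukocytes, had at most 0.776 FPKM in any library.

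C1q-like proteins were the class with the most loci. Of the 36 loci, 13 had no read in any library, which allows up to 0.0243 CPM (counts scaled to library size) over all 6 libraries (3 counts, counting error only). Another 11 had reads but a mean of at most 0.305 FPKM, and 12 were tested. Of the 23 loci whose file symbol begins with C1q, 12 had no read and 2 were tested. Of the 13 with another symbol or none, 1 had no read and 10 were tested. Some of these symbols, among them COL8A1, COL8A2, CBLN1 and Caprin2, name other C1q-domain proteins and go against the description, so the identity of these loci is uncertain. In the class sum, LOC100136613, LOC110535289 and LOC118936357 lay far above the rest, and control means of the 12 tested loci spanned 587-fold.

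LOC100136613, described as complement C1q-like protein 3, was the most abundant and the only C1q-like locus to pass. It had 1929, 1477 and 1065 FPKM in control replicates 1 to 3 and 4299, 4495 and 3206 FPKM in hypoxia replicates 1 to 3. The lowest hypoxia library was well above the highest control library. The rise was 1.42 on the log2 scale (SE 0.21), or 2.67-fold, with an edgeR adjusted p of 0.00793, and the fold ranked 137th of all genes tested. It kept its call without each library in turn, with an edgeR adjusted p of 0.00172 to 0.0375 and log2 fold changes of 1.24 to 1.61. Its share of the C1q-like FPKM went from 43.7% ± 6.16 (SD, n = 3) to 65.4% ± 3.70 (SD, n = 3). Without it the class summed to 1799 to 2001 FPKM in control and 2031 to 2169 FPKM in hypoxia.

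The next C1q-like loci by level did not pass. LOC110535289, described as C1q-like protein 4, had 914.9, 831 and 984 FPKM in control and 1218, 1187 and 1013 FPKM in hypoxia (log2 fold change 0.30, SE 0.14, edgeR adjusted p = 0.219). LOC118936357, a C1q-like protein 2, had 714, 596 and 516 FPKM in control and 666, 596 and 659.8 FPKM in hypoxia (0.03, SE 0.13, edgeR adjusted p = 0.909). The groups did not overlap at the first, by a narrow margin, and overlapped at the second. LOC110520680 had 114, 136 and 80.8 FPKM in control and 75.2, 54.3 and 100.2 FPKM in hypoxia (-0.55, SE 0.22, edgeR adjusted p = 0.149). LOC118936539 had 47.4, 45.2 and 54.9 FPKM in control and 66.8, 71.2 and 65.0 FPKM in hypoxia (0.44, SE 0.14, edgeR adjusted p = 0.0814), with every hypoxia library above. Loci with the same description, C1q-like protein 2, thus lay on both sides of 0. LOC110538203 had 85.4, 47.7 and 26.9 FPKM in control and 30.4, 32.5 and 56.9 FPKM in hypoxia (-0.42, SE 0.34, edgeR adjusted p = 0.486). Its neighbour LOC110538201 had 5.36, 5.20 and 7.80 FPKM in control and 3.09, 4.33 and 2.18 FPKM in hypoxia, all below (-0.96, SE 0.28, edgeR adjusted p = 0.0594). It passed without control replicate 1 (-1.07, edgeR adjusted p = 0.0435) and without hypoxia replicate 2 (-1.27, edgeR adjusted p = 0.0459).

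By their median, C1q-like loci also varied more between libraries of a group than all genes tested. Their median coefficient of variation was 25.3% in control and 23.7% in hypoxia, beside 15.6% and 14.4% over all genes tested and 6.61% and 10.4% for terminal components. Not every locus did so: LOC110535289 had 8.42% and 9.67%, and LOC118936539 10.4% and 4.68%. LOC110494831 had 13.4, 31.7 and 65.0 FPKM in the 3 controls, a 4.86-fold span, and LOC110538203 a 3.17-fold span. Control replicate 1 was the lowest control at LOC110494831 and the highest at LOC110538203. Of the 8 C1q/TNF-related loci, which encode secreted relatives of the fat hormone adiponectin, 1 was tested. That locus, LOC110497717, had 2.04, 2.30 and 3.27 FPKM in control and 3.49, 2.69 and 2.98 FPKM in hypoxia. Its mean FPKM was higher after hypoxia, with a log2 ratio of 0.22 once 0.5 was added to each mean (0.27 in the authors' deposited table). Its counts gave -0.12 (edgeR adjusted p = 0.794).

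**Figure D3:**
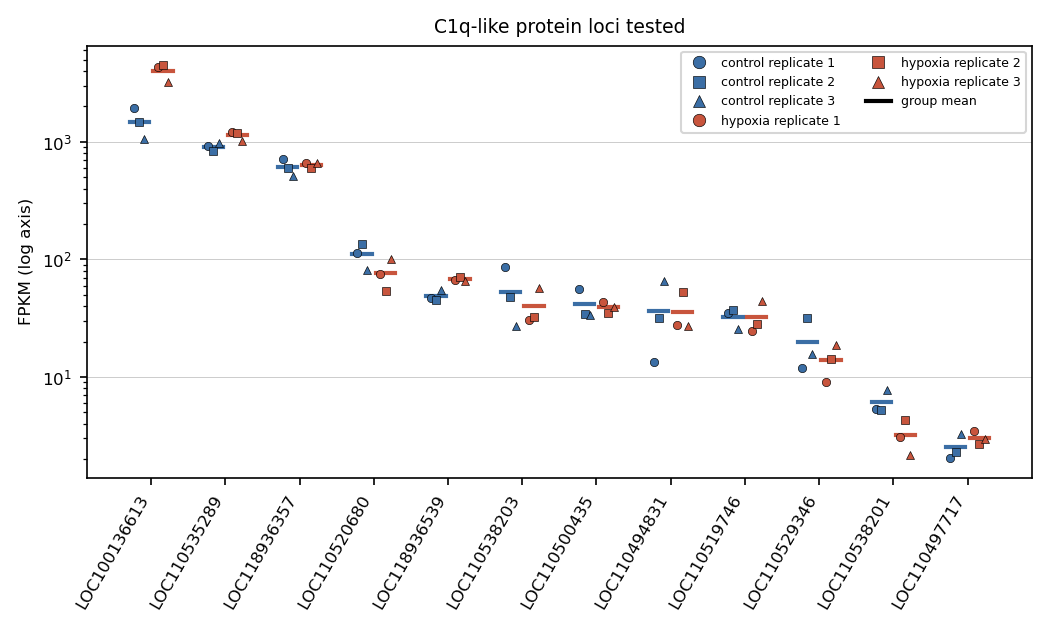
FPKM on a log axis of the 12 tested C1q-like loci, ordered by mean level, with control libraries in blue, hypoxia libraries in red and bars at the group means. LOC100136613 is at 1065 to 1929 FPKM in control and 3206 to 4495 FPKM in hypoxia, and the points of most lower loci intermingle.

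The starter proteases C1r and C1s, which act when C1q binds, did not pass at any of the 4 loci. The most abundant, c1r, had 464, 459 and 508 FPKM in control and 459, 511 and 469.96 FPKM in hypoxia (-0.01, SE 0.14, edgeR adjusted p = 0.975). LOC110503568, another C1r locus, had 72.9, 73.4 and 86.0 FPKM in control and 72.0, 79.4 and 75.1 FPKM in hypoxia (-0.06, SE 0.14, edgeR adjusted p = 0.842). The groups overlapped at both. The C1r-like locus LOC118936525, a neighbour of LOC110503568, had 34.3, 23.9 and 23.01 FPKM in control and 35.8, 34.2 and 34.01 FPKM in hypoxia (0.34, SE 0.15, edgeR adjusted p = 0.189). Its file symbol, Tmprss9, goes against the description, so the identity of this locus is uncertain. Control replicate 1 lay with the hypoxia libraries there. Of all settings run, the locus passed only without that library (0.50, edgeR adjusted p = 0.0262). That fit leaves out the library that went against a rise, so its call does not support one. The C1s locus LOC110503575 (file symbol Masp2), next in the same run, was low, with 3.74, 3.90 and 3.79 FPKM in control and 3.36, 2.96 and 2.81 FPKM in hypoxia, all below (-0.35, SE 0.14, edgeR adjusted p = 0.163). Of the 3 C4 loci, whose product C1s cleaves, the most abundant was LOC110506677, with 157, 122 and 154 FPKM in control and 113, 157 and 145 FPKM in hypoxia. Counts and FPKM moved apart at this locus. Its counts were 12240, 12515 and 14002 in control and 6850, 9371 and 10499 in hypoxia, which gave -0.42 (SE 0.17, edgeR adjusted p = 0.163), while the log2 ratio of mean FPKM was -0.06. As CPM these were 632, 569 and 605 in control and 349, 466 and 551 in hypoxia. The scaling from counts to FPKM thus differed between libraries at this locus. With 0.5 added to each mean FPKM, 3 of the 59 tested loci had count and FPKM changes more than 0.1 apart, against 4959 of 19365 genes. LOC110506677 was the farthest. The added 0.5 shrinks ratios at low levels and so widens some of these gaps. At LOC110538201, another of the 3, the ratio was -0.84 with it and -0.94 in the authors' deposited table, beside -0.96 from counts.

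C3 transcripts, the hub of the 3 pathways, came from 9 loci, all of them tested. The levels spanned 132-fold in control means. LOC110489027 held 64.1% ± 2.94 (SD, n = 3) of the C3 FPKM in control and 64.6% ± 2.37 (SD, n = 3) in hypoxia. It had 5119, 4462 and 4736 FPKM in control and 5699, 6273 and 6106 FPKM in hypoxia. Every hypoxia library was above every control library, yet the difference of 0.32 (SE 0.14) had an edgeR adjusted p of 0.197. Over the 9 loci 7 had a log2 fold change above 0 and 2 below, against 9586 above of all 19365 genes tested. Hypoxia was above without overlap at 3 of the 9, against 13.9% of all genes tested.

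The C3 locus that rose was LOC110517348, the second by mean level. It had 690.03, 513 and 508 FPKM in control and 882, 1148 and 784 FPKM in hypoxia, with no overlap. The rise was 0.71 (SE 0.18), or 1.64-fold, with an edgeR adjusted p of 0.0432. Its share of the C3 FPKM was 7.62% ± 0.77 in control and 10.002% ± 1.40 in hypoxia (SD, n = 3). Leaving out control replicate 1 kept the call (edgeR adjusted p = 0.0219). Leaving out any of the others ended it, with an edgeR adjusted p of 0.138 (control replicate 2), 0.131 (control replicate 3), 0.0978 (hypoxia replicate 1), 0.127 (hypoxia replicate 2) and 0.0526 (hypoxia replicate 3).

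The other 7 C3 loci did not pass. LOC110530587 had 569, 469 and 634 FPKM in control and 718, 722 and 640.3 FPKM in hypoxia, without overlap (0.29, SE 0.15, edgeR adjusted p = 0.277). The locus c3-3 had 653, 324 and 527 FPKM in control and 346, 525 and 416 FPKM in hypoxia (-0.23, SE 0.24, edgeR adjusted p = 0.608). LOC100135918 had 468, 388 and 477 FPKM in control and 437, 561 and 409 FPKM in hypoxia (0.06, SE 0.17, edgeR adjusted p = 0.862). At c3-3 and LOC100135918 the groups overlapped. LOC110489018 had 418, 238 and 338 FPKM in control and 359, 515 and 442 FPKM in hypoxia (0.40, SE 0.21, edgeR adjusted p = 0.275). LOC118939581 had 223, 123 and 162 FPKM in control and 185, 270.1 and 223 FPKM in hypoxia (0.41, SE 0.21, edgeR adjusted p = 0.270). At both, control replicate 2 was the lowest library of all and hypoxia replicate 2 the highest. LOC110489008 had 99.7, 70.3 and 75.0 FPKM in control and 90.5, 99.3 and 109.8 FPKM in hypoxia (0.28, SE 0.15, edgeR adjusted p = 0.292).

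The least abundant C3 locus, LOC118939584, was with c3-3 one of the 2 below 0. It had 56.6, 30.7 and 21.2 FPKM in control and 8.71, 7.80 and 41.6 FPKM in hypoxia, so hypoxia replicate 3 sat among the controls (-0.92, SE 0.54, edgeR adjusted p = 0.335). Of all settings run, the locus passed only without hypoxia replicate 3 (-2.12, edgeR adjusted p = 0.0348). That fit leaves out the library that went against a fall, so its call does not support one. Control replicate 2 was the lowest control at 7 of the 9 C3 loci and control replicate 1 the highest at 7, while hypoxia replicate 2 was the highest hypoxia library at 7. LOC110489008, LOC118939581, LOC118939584, LOC110489018 and LOC110489027 follow one another with no gene between them in the reference assembly. These 5 neighbours are described alike, as are LOC110517348, LOC110530587 and LOC100135918. Counting could have split reads between copies if they are near-identical, so each copy's value is uncertain. Their sequences were not compared. Reads per FPKM, scaled to library size, grow with transcript length. In control replicate 1 they were 1850 at LOC118939584, 3237 at LOC110489018 and 5603 at LOC110489027, so the first is counted over a shorter transcript.

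**Figure D4:**
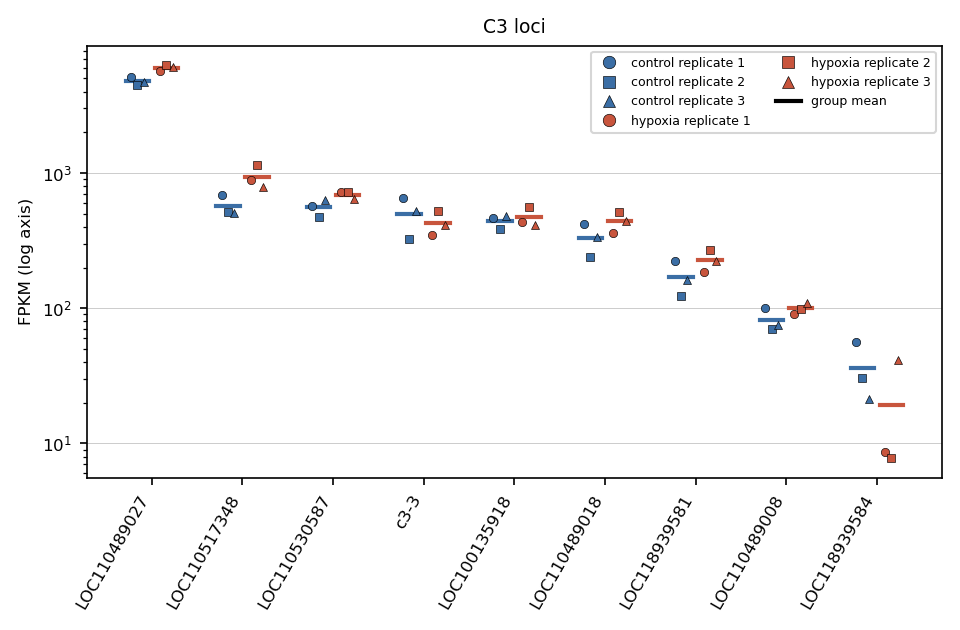
FPKM on a log axis of the 9 C3 loci, ordered by mean level, with control libraries in blue, hypoxia libraries in red and bars at the group means. LOC110489027 lies at 4462 to 6273 FPKM, far above the rest, and hypoxia replicate 3 of LOC118939584, at 41.6 FPKM, lies among the controls.

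Among the factors and regulators, 0 of the 15 tested loci passed in edgeR. At an unadjusted edgeR p under 0.05 the count was 7, against 23.7% of all genes tested. DESeq2 called 3 of the 15 higher and 1 lower, against 950 higher and 841 lower of all 19365 genes. All 4 loci described as factor B or factor B/C2 had a log2 fold change above 0, with a median of 0.36. Under each other scaling the signs were the same. Genes 100653464 and 100135805 are described as factor B/C2 and factor B/C2-B, so their identity as factor B is uncertain. Factor B supplies the protease of the alternative C3 convertase. The 4 loci summed to 1773, 1312 and 1640.3 FPKM in control and 2294, 2331 and 1705 FPKM in hypoxia, where hypoxia replicate 3 lay below control replicate 1. The locus cfb had 692, 475 and 649 FPKM in control and 994, 1043 and 718 FPKM in hypoxia (0.59, SE 0.19, edgeR adjusted p = 0.0841), all above. Its adjusted p in the authors' deposited table is 0.0304. Its relative cfbl had 747, 539 and 655 FPKM in control and 908, 870.3 and 607 FPKM in hypoxia, with overlap (0.29, SE 0.18, edgeR adjusted p = 0.368). Factor D, which cleaves factor B, went the other way at cfd, with 169.96, 133 and 137 FPKM in control and 102, 106 and 129 FPKM in hypoxia (-0.45, SE 0.13, edgeR adjusted p = 0.0564), all below. The authors' deposited table gives cfd an adjusted p of 0.0224.

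Factor I, the protease that cuts C3b and C4b, had 594, 589.6 and 621 FPKM in control and 634, 639.6 and 614 FPKM in hypoxia (0.02, SE 0.13, edgeR adjusted p = 0.951). The groups overlapped.

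Terminal components had log2 fold changes below 0 at 6 of 8 loci, against 9779 of all 19365 genes tested. At 4 of the 8 every hypoxia library lay below every control, against 13.1% of all genes tested. C9, which forms the wall of the membrane pore, was the most abundant. The locus c9 had 2617, 2402 and 2296 FPKM in control and 1579, 1935 and 1697 FPKM in hypoxia. All hypoxia libraries were below all controls, with a difference of -0.50 (SE 0.14) and an edgeR adjusted p of 0.0573, just outside the threshold. The adjusted p was 0.0122 by DESeq2, 0.0362 in edgeR with no filter on low values and 0.0448 by limma on log2(FPKM + 1). It was 0.0503 by limma on log2(FPKM + 0.5), 0.0582 to 0.0675 in edgeR with the other scalings and filter and 0.0590 to 0.220 in edgeR with 1 library left out. The value in the authors' deposited table is 0.0105. C7, which anchors the complex in the membrane, has 2 loci. The locus c7b had 27.4, 31.1 and 27.9 FPKM in control and 18.3, 20.9 and 23.04 FPKM in hypoxia. It fell by 0.52 (SE 0.14), to 0.699 of the control level, with an edgeR adjusted p of 0.0454. The call was kept without control replicate 1 (edgeR adjusted p = 0.0221). It was lost without control replicate 2 (0.155), control replicate 3 (0.105), hypoxia replicate 1 (0.170), hypoxia replicate 2 (0.112) or hypoxia replicate 3 (0.0831). The locus c7a had 11.4, 8.27 and 8.75 FPKM in control and 6.33, 7.33 and 7.79 FPKM in hypoxia (-0.42, SE 0.15, edgeR adjusted p = 0.117), again without overlap.

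The other terminal components did not pass. C5, which starts the complex, had at c5 442, 402 and 457 FPKM in control and 416, 471 and 397 FPKM in hypoxia (-0.04, SE 0.14, edgeR adjusted p = 0.907). The alpha chain of C8, c8a, had 520.3, 518 and 486 FPKM in control and 444, 449.9 and 409 FPKM in hypoxia, all below (-0.25, SE 0.12, edgeR adjusted p = 0.261). The beta chain c8b had 371, 368 and 341 FPKM in control and 352, 366 and 435 FPKM in hypoxia (0.07, SE 0.13, edgeR adjusted p = 0.782). Only the alpha chain of C8 had groups that did not overlap. The gamma chain c8g had 575, 625 and 583 FPKM in control and 600.3, 589.6 and 579.5 FPKM in hypoxia (-0.03, SE 0.12, edgeR adjusted p = 0.902). C6 was low, with 8.65, 6.55 and 7.16 FPKM in control and 7.05, 7.64 and 9.63 FPKM in hypoxia (0.11, SE 0.15, edgeR adjusted p = 0.710). The summed level of the class was 4206 to 4573 FPKM in control and 3423 to 3848 FPKM in hypoxia, and c9 made up 55.6% ± 1.41 of it in control and 48.0% ± 2.11 in hypoxia (SD, n = 3).

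**Figure D5:**
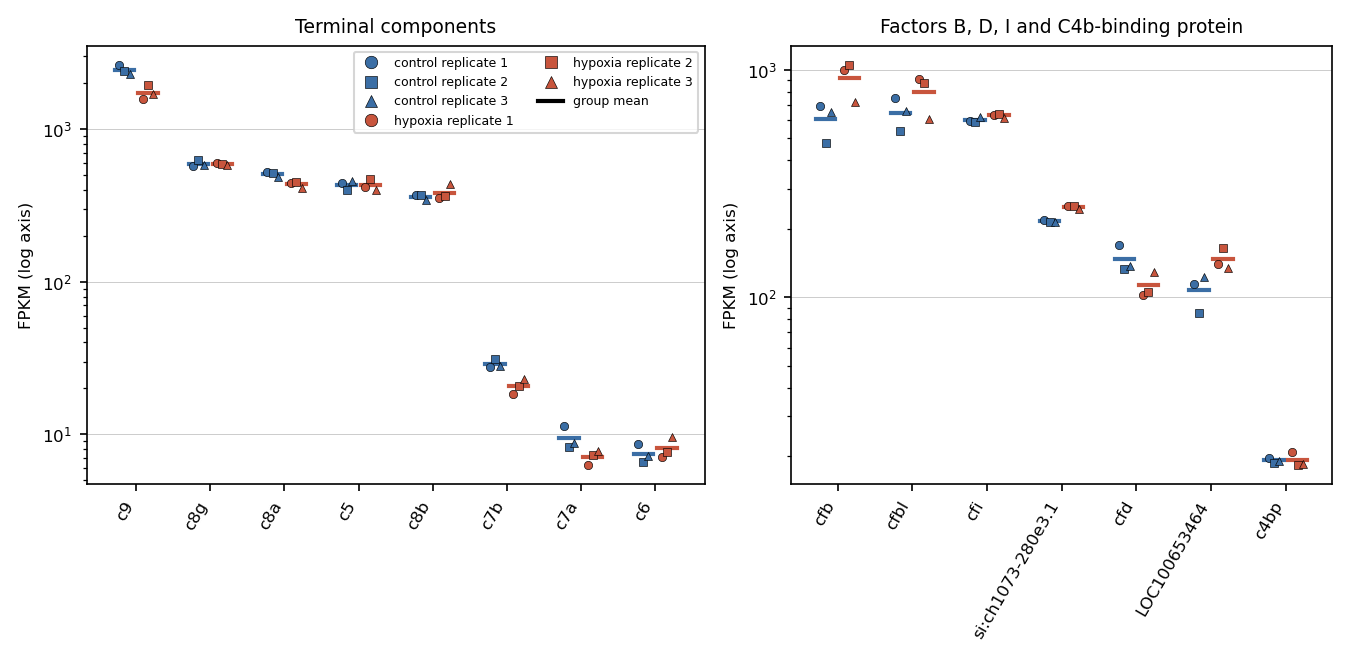
FPKM on a log axis of the 8 terminal components and 7 of the tested factors and regulators, with control libraries in blue, hypoxia libraries in red and bars at the group means. At c9 the hypoxia libraries lie at 1579 to 1935 FPKM below the controls at 2296 to 2617 FPKM, and at cfb they lie above, at 718 to 1043 FPKM against 475 to 692 FPKM.

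The 2 C1q-binding proteins are copies of a mostly mitochondrial protein that was named for its binding to C1q. LOC110537832 had 9.73, 10.1 and 9.10 FPKM in control and 18.1, 13.05 and 16.1 FPKM in hypoxia. It rose by 0.68 (SE 0.14), or 1.60-fold, with an edgeR adjusted p of 0.0178. Its call was lost without control replicate 3 (edgeR adjusted p = 0.0600), hypoxia replicate 1 (0.0817) and hypoxia replicate 3 (0.0556). The second copy, LOC110533307, had 4.67, 4.13 and 3.98 FPKM in control and 6.81, 5.26 and 7.07 FPKM in hypoxia, all above (0.56, SE 0.15, edgeR adjusted p = 0.0523). The C1 inhibitor (SERPING1), which shuts off C1r and C1s, had 619, 626 and 644 FPKM in control and 550.4, 594 and 598 FPKM in hypoxia, all below (-0.14, SE 0.13, edgeR adjusted p = 0.556). The 3 loci described as C1q receptor or C1q receptor-like, among them CD93, had at most 1.57 FPKM in any library.

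Related genes outside these names were taken from a list of receptors, cell-surface guards, soluble regulators and pattern-recognition proteins. They were found by the start of the description, which also took in cluap1, described as clusterin associated protein 1. Of its 49 loci 27 were tested, 1 rose and 1 fell, or 7.41%, against 7.22% of all genes tested. That share lies near the background and is no result about the list. Both called loci were pentraxins of the C-reactive protein family, which bind microbial surfaces and can start complement through C1q. C-reactive protein (CRP, gene 110491696) had 391, 274 and 345 FPKM in control and 603, 516 and 445 FPKM in hypoxia, and rose by 0.61 (SE 0.16, edgeR adjusted p = 0.0438). A second locus, crp (gene 100136779), had 5.84, 7.03 and 6.29 FPKM in control and 1.82, 2.87 and 4.27 FPKM in hypoxia, and fell by 1.09 (SE 0.29, edgeR adjusted p = 0.0446). The groups overlapped at neither. The first lost its call without control replicate 2 (edgeR adjusted p = 0.149), control replicate 3 (0.0859), hypoxia replicate 1 (0.165), hypoxia replicate 2 (0.122) or hypoxia replicate 3 (0.0526). The second lost it without control replicate 2 (edgeR adjusted p = 0.129), control replicate 3 (0.109), hypoxia replicate 1 (0.115) or hypoxia replicate 2 (0.110). The most abundant locus of the list, a pentraxin with the file symbol APCS, had 2330.2, 2099.8 and 2165 FPKM in control and 3235, 2992 and 2760.03 FPKM in hypoxia, all above (0.44, SE 0.13, edgeR adjusted p = 0.0655). Carboxypeptidase B2, which trims complement peptides, had 227, 262 and 248 FPKM in control and 239.9, 218 and 189 FPKM in hypoxia (-0.21, SE 0.14, edgeR adjusted p = 0.411). Properdin, which stabilises the alternative convertase, had 169.5, 133 and 149 FPKM in control and 185, 201 and 181 FPKM in hypoxia at its most abundant locus (gene 100136651), all above (0.31, SE 0.13, edgeR adjusted p = 0.188). The file symbol of that locus, Thbs1, goes against the description. Another properdin locus, pfc, had 114, 96.9 and 111 FPKM in control and 141, 131 and 97.9 FPKM in hypoxia, with overlap (0.18, SE 0.16, edgeR adjusted p = 0.521).

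Some complement genes are spelled otherwise in the table and fell outside the rule; they were picked after their values were seen. The C4 gene c4b had 703, 722 and 805 FPKM in control and 846, 966 and 913 FPKM in hypoxia, all above (0.27, SE 0.14, edgeR adjusted p = 0.288). It was more abundant than any C4 member. Its change was above 0, as at the C4 members LOC110507666 (0.24) and LOC110503832 (0.12), and unlike the counts at LOC110506677 (-0.42). The lectin pathway protease masp2 had 70.9, 84.4 and 84.95 FPKM in control and 74.0, 71.1 and 66.1 FPKM in hypoxia (-0.20, SE 0.14, edgeR adjusted p = 0.404). The gene masp1 had 12.9, 14.3 and 16.2 FPKM in control and 13.1, 11.04 and 15.2 FPKM in hypoxia (-0.18, SE 0.15, edgeR adjusted p = 0.512). Neither protease gene separated the groups. Of the 6 such loci tested 0 passed in edgeR, and 1 had an unadjusted edgeR p under 0.05, against 23.7% of all genes tested. That locus, adipoqb, an adiponectin gene with a C1q domain, had 2.34, 3.06 and 3.18 FPKM in control and 1.01, 1.02 and 1.98 FPKM in hypoxia (-1.08, SE 0.33, edgeR adjusted p = 0.0705).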

How the data were processed

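The authors' deposited RNA-seq table gives raw counts per gene and FPKM for 3 control and 3 hypoxia libraries, per the file headers, with the authors' own log2 fold change, p-value and adjusted p-value. The submitters' processing notes list Bowtie2 2.2.8 and TopHat2 2.1.1 without saying what each did. Quantifier, annotation and build: not given in the sources used here.

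Genes with a mean of at least 0.5 FPKM were tested on the deposited counts with edgeR 4.0.16 in R 4.3.3 (quasi-likelihood, TMM, group only, two-sided, Benjamini-Hochberg over all 19365 genes, threshold 0.05). Standard errors were taken as the size of the unshrunken log2 fold change over the root of its F statistic. Alternatives used DESeq2 1.42.0, limma 3.58.1, other scalings and filters, a replicate block and each library left out. The fit was tested on simulated data. Replicates differed beyond counting noise (chi-square per degree of freedom 12.4 to 30.1).

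Members and lists were chosen with earlier results of these data known. Named are all loci past the threshold, all C3 and terminal loci tested, the C1q subunits, the next 5 C1q-like loci and the 3 most abundant loci of the starter proteases with C4 and of the related genes. The same rule would name the 3 most abundant factors and regulators. These are among 8 tested loci of that class that are not reported here one by one but are in the class totals, so the factors named were picked after their values were seen, as were other loci. Names and gene order came from RefSeq genes of assembly USDA_OmykA_1.1, in which all 85 members were found.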

Additional observations from a re-analysis of the deposited data

How the results depend on the processing

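The call of LOC100136613 was kept under each alternative run. Single-gene values were followed for the 33 members and 4 related genes of the naming rule, with the 3 most abundant factors and regulators among them. Of these values 477 kept their side of the threshold, 33 lost it, 8 gained it and 0 reversed. Other loci given above, among them cfb, cfd and LOC110538201, are not in these counts. Against 3 complement loci higher and 1 lower, DESeq2 gave 6 and 4, and no filter on low values gave 3 lower. Over all genes DESeq2 gave 950 higher and 841 lower of 19365, and no filter gave 864 lower of 34217. Upper-quartile factors, filterByExpr and limma on log2(FPKM + 0.5) gave 0 lower. Leaving out 1 library gave 1 to 4 loci higher and 0 to 3 lower, 0 to 1 related genes higher and 0 to 2 lower, and 229 to 1130 genes higher and 127 to 1056 lower over all genes. Limma called 317 genes lower with a pseudocount of 0.5 and 323 with 1, against 657. Of the related genes, DESeq2 called 2 higher and limma on log2(FPKM + 0.5) called 0 higher. The highest counts with a library left out came without control replicate 1. The cause of these shifts was not tested.

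Same-numbered control and hypoxia libraries did not deviate together (r = -0.054, 0.037 and -0.040), so replicate numbers were not taken as a pairing. With the replicate number as a block, 559 genes were higher and 497 lower, with 2 complement loci higher and 0 lower and 0 related genes higher.

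Each group had 3 libraries, with a spread between them beyond counting noise. For the 13 C1q-like loci without a read, transcripts were not detectable at this depth.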
